A study of Homo sapiens with 42 samples.

Results

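The genes described here encode the INK4 and p27/p57 inhibitors of cyclin-dependent kinases (CDKs). The list named 6 genes, CDKN1B, CDKN1C, CDKN2A, CDKN2B, CDKN2C and CDKN2D, and members were the entries of the deposited expression table that carried 1 of these symbols alone, without regard to their values. In all, 5 of the 6 genes had such an entry, 1 each, among 18404 genes tested, and CDKN2C is not analysed here. Messenger RNA of 2 lung cancer lines was read on 42 one-colour Affymetrix arrays. The study describes H460, from a large-cell carcinoma, as radiosensitive and H1299, from a non-small cell carcinoma, as radioresistant. Monolayer cells in exponential growth were given 2 Gy of gamma rays. The 0 h groups, taken before the dose, hold 6 arrays per line, and the groups taken 2, 4, 8, 12 and 24 h after it hold 3 each. Later unirradiated arrays are not among the labelled groups, and the effects of the dose and of time in culture cannot be told apart in any change given here. The protocol mentions unirradiated cells incubated for the same periods, and whether arrays labelled 0 h include such cells could not be told. The arrays of a group are labelled biological replicates without a statement that they came from separate cultures, so p-values measure the spread between these arrays.

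Progression from G1 into S phase depends on cyclin D with CDK4 or CDK6, and then on cyclin E with CDK2, which phosphorylate the retinoblastoma protein and its relatives and so release E2F factors. INK4 proteins bind CDK4 and CDK6 and keep them from cyclin D, whereas p27 and p57 of the CIP/KIP family bind assembled cyclin-CDK complexes, mainly those of CDK2. CDKN2A encodes p16 and, from another first exon, ARF, which restrains MDM2, and its locus is a frequent target of loss or silencing in lung cancer. The protein level of p27 is set largely by ubiquitin-dependent destruction, which mRNA arrays do not read.

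The promoters of 4 inhibitors are shown, those measured genes for which a promoter entry was at hand. Of the 5 measured genes, 4 matched an entry of the promoter table by symbol, all but CDKN1C. Each is the 250 bases before an annotated start site in RefSeq (GRCh38.p14), written 5′ to 3′ on the gene's strand, with capitals marking matches to GGGCGG on either strand (CCGCCC where it lies on the other strand), the core of the GC box bound by SP1. They lie at chr12:12717118-12717367 (plus strand) for CDKN1B, chr19:10568980-10569229 (minus strand) for CDKN2D, chr9:21974858-21975107 (minus strand) for the start of CDKN2A nearer to its shared exons, and chr9:22009306-22009555 (minus strand) for CDKN2B.
CDKN1B: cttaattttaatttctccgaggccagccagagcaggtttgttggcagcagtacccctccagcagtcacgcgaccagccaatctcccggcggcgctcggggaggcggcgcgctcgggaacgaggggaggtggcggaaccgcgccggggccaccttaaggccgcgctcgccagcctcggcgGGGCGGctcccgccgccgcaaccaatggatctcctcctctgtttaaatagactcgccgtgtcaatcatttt
CDKN2D: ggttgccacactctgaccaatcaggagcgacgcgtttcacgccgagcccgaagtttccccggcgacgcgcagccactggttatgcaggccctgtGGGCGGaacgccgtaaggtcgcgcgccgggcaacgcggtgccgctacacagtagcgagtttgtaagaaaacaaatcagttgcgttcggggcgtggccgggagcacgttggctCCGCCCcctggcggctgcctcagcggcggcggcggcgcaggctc
CDKN2A: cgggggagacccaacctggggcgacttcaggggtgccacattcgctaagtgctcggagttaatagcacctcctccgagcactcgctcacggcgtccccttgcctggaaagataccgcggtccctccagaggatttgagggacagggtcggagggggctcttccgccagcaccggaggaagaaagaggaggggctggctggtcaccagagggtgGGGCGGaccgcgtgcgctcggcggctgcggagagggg
CDKN2B: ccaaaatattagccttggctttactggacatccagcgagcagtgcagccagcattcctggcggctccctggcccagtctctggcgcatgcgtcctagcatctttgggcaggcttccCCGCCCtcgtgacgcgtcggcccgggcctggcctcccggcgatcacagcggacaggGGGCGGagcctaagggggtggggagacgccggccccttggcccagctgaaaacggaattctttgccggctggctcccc
The GC box core occurred once in the CDKN1B window, 71 bases before the start, and once in this CDKN2A window, 37 bases before it. CDKN2D and CDKN2B each held 2 matches, at 156 and 44 bases and at 134 and 78 bases before their starts. Of 35116 promoter windows of this length, 42.6% held the motif. The other CDKN2A start, at chr9:21995325-21995574 (minus strand), had 0 matches. None of these 5 windows held the E2F motif TTCCCGC, its variant TTGGCGC, the further variant TTCGCGC or the form TTGCCGC (10.9% of all windows held at least 1 of these), the FOXO motif TGTTTAC (2.98%) or the cell cycle homology motif TTTGAA (13.3%), which says only that these letters are not in the windows. All 5 windows were rich in CpG dinucleotides, with 27 in CDKN1B, 33 in CDKN2D, 20 and 24 at the CDKN2A starts and 18 in CDKN2B, against a median of 11 over all windows.

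Before irradiation, CDKN2A, CDKN1B and CDKN2B mRNAs were lower in H460 than in H1299, by 3.69-fold, 2.71-fold and 1.82-fold. CDKN1C and CDKN2D did not pass the test. Levels are log2 intensities as deposited, differences are on the log2 scale with the standard error of the model after ±, and adjusted p is limma's with Benjamini-Hochberg adjustment over all 18404 genes and a threshold of 0.05. By this rule 3 of the 5 inhibitors differed at 0 h, all lower in H460, where 55.1% of all genes tested differed in either direction and 29.1% were lower in H460. Levels of different genes come from different probes and were not compared.

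CDKN2A (row 8160441) had a lowest, median and highest level of 5.36, 5.40 and 5.88 over the 6 H460 arrays, and of 7.27, 7.35 and 7.75 over the 6 H1299 arrays. Every H460 array lay below every H1299 array. The difference was -1.88 ± 0.12 (adjusted p = 2.19e-11). CDKN1B (row 7954029), the gene of p27, ran from 6.21 through a median of 6.76 to 6.97 in H460 and from 8.02 through 8.14 to 8.17 in H1299. The H460 arrays were again all lower, and they spread more widely (SD 0.30 against 0.057, n = 6 each). The difference was -1.44 ± 0.11 (adjusted p = 7.70e-10). CDKN2B (row 8160452), the gene of p15, ran from 5.87 through 6.11 to 6.51 in H460 and from 6.86 through 6.97 to 7.22 in H1299, also without overlap, and differed by -0.86 ± 0.11 (adjusted p = 9.40e-07). Across all genes, 35.3% had arrays that did not overlap between the lines at 0 h.

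CDKN1C (row 7945767), the gene of p57, ran from 7.01 through 7.33 to 7.47 in H460 and from 6.88 through 7.09 to 7.21 in H1299. The arrays overlapped, and the difference was 0.21 ± 0.094 (adjusted p = 0.0655, 95% interval 0.01 to 0.40). It passed the test after quantile normalization (0.32, adjusted p = 0.0119), with array medians centred (0.24, adjusted p = 0.0317), and without H460 replicate 4 (0.26, adjusted p = 0.0235), H460 replicate 6 (0.24, adjusted p = 0.0401) or H1299 replicate 2 (0.23, adjusted p = 0.0456). It was 0.09 with array width in the model (adjusted p = 0.506) and 0.05 with replicates 4 to 6 only (adjusted p = 0.774). CDKN2D (row 8034075), the gene of the INK4 protein p19, ran from 6.55 through 6.71 to 6.94 in H460 and from 6.65 through 6.82 to 7.26 in H1299. Its difference was -0.14 ± 0.10 (adjusted p = 0.243, 95% interval -0.36 to 0.07), and with array width in the model, as described with the time courses, it was -0.34 (adjusted p = 0.00778).

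**Figure D1:**
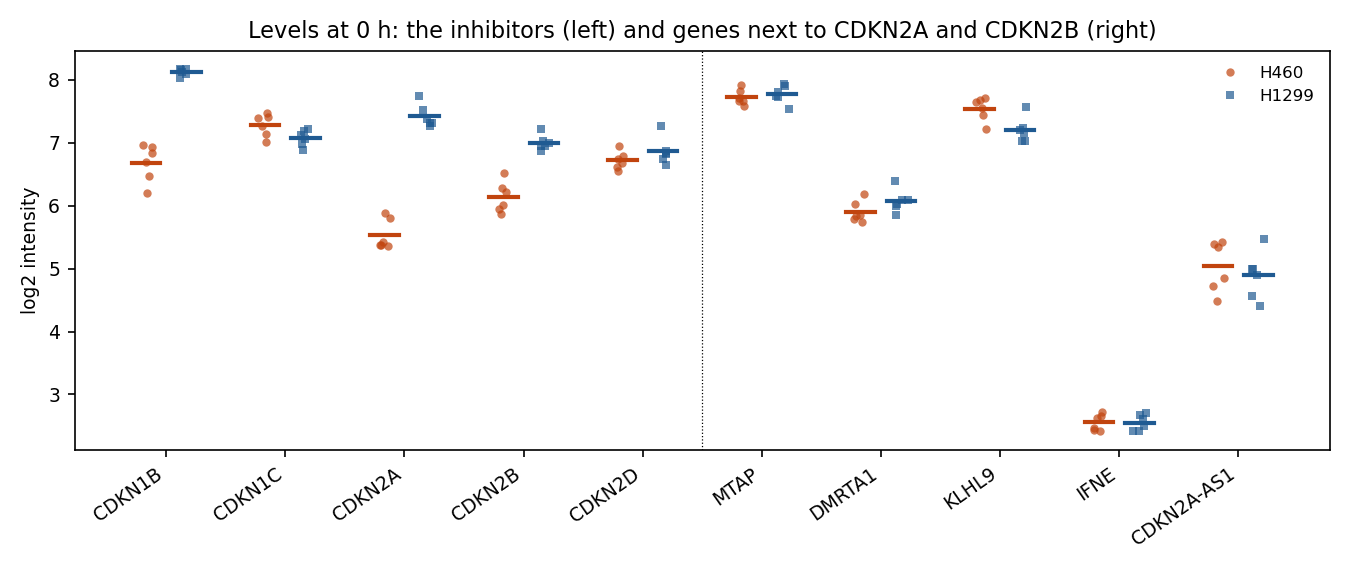
Levels at 0 h of the 5 inhibitors and of genes beside CDKN2A and CDKN2B, as log2 intensity on the vertical axis, with 1 point per array (6 per line) and a bar at the group mean. CDKN1B, CDKN2A and CDKN2B separate the lines, with means of 6.68 and 5.54 in H460 and 8.12 and 7.42 in H1299 for CDKN1B and CDKN2A, whereas MTAP stands at 7.72 and 7.77. Heights of different genes are not comparable.

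CDKN2A and CDKN2B lie side by side on chromosome 9, and the genes around them were read for comparison. MTAP, which salvages methionine and is next to CDKN2A, had a mean of 7.72 in H460 and 7.77 in H1299, a difference of -0.04 (adjusted p = 0.670). DMRTA1 differed by -0.17 (adjusted p = 0.190), IFNE by 0.00 and KLHL9 by 0.34 (adjusted p = 0.0101). IFNE stood low in both lines, with a mean of 2.56 in H460 and 2.55 in H1299, against array medians of 5.97 to 6.18. Of these 4 measured neighbours 1 was higher in H460 and 0 were lower. CDKN2A-AS1, the antisense transcript of the locus, named outside the fixed rule after its values were seen, had a mean of 5.03 in H460 and 4.89 in H1299 and a difference of 0.14 ± 0.18 (adjusted p = 0.516). CDKN2B-AS1 is not analysed here. The single CDKN2A value was not split between p16 and ARF.

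The separation held through all time points for 3 inhibitors. CDKN1B lay between 6.21 and 7.44 on the 21 H460 arrays and between 8.01 and 8.38 on the 21 H1299 arrays. CDKN2A lay between 4.91 and 5.91 in H460 and between 7.20 and 8.30 in H1299, and CDKN2B between 5.52 and 6.51 and between 6.71 and 7.65. All H460 arrays of these genes were thus below all H1299 arrays. The share of all genes that separate the lines through all time points is not given here. At 0 h alone, 35.3% of all genes had arrays that did not overlap between the lines, in either direction. Whether the lasting separation is particular to these inhibitors therefore cannot be told. CDKN1C (6.72 to 7.47 in H460, 6.55 to 7.27 in H1299) and CDKN2D (5.58 to 6.94 and 6.44 to 7.26) overlapped between the lines.

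**Figure D2:**
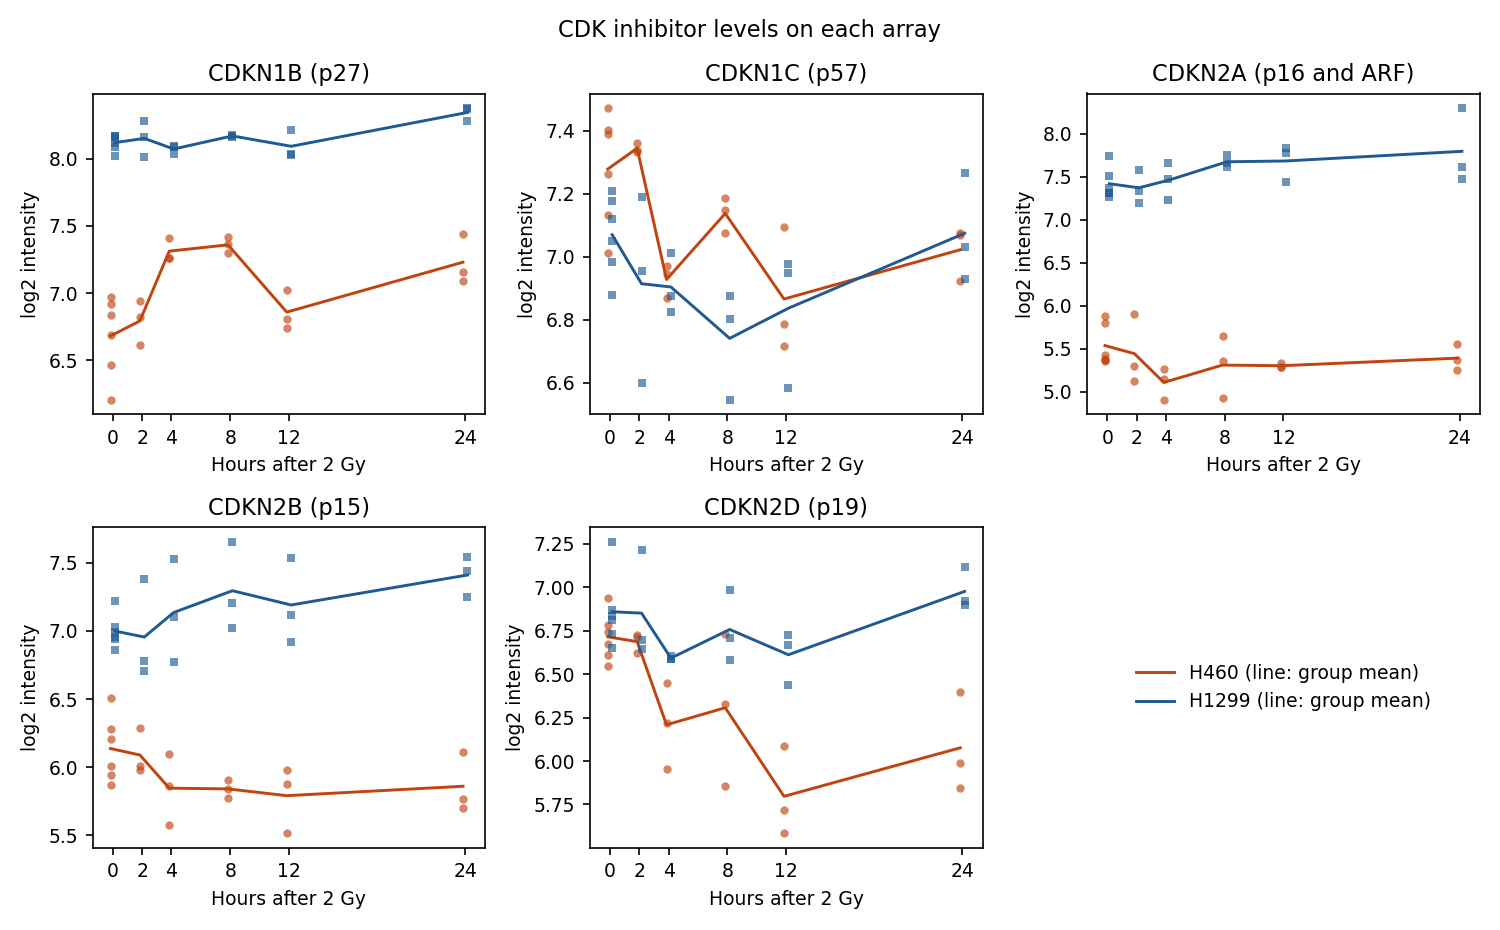
Log2 intensity of each inhibitor (vertical axis, a separate scale per gene) against hours after 2 Gy, with 1 point per array and a line through the group means (6 arrays at 0 h, 3 at each later time) for H460 and H1299. CDKN1B in H460 is near 7.3 at 4 and 8 h, from a mean of 6.68 at 0 h, and CDKN2D in H460 is lowest at 12 h, with a mean of 5.80.

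In H460, CDKN1B rose and CDKN2D and CDKN1C fell after irradiation, each at least at 1 time point, while CDKN2A and CDKN2B did not pass the test at any. Of the 5 inhibitors, 0 passed at 2 h, where 40.4% of all genes did, 1 at 4 h (2.92% of all genes), 1 at 8 h (16.9%), 2 at 12 h (33.5%) and 2 at 24 h (28.7%). With array width in the model, described below, 0% of all genes passed at 2 h. The whole course, tested as a quadratic curve over hours on the 21 arrays, passed for 2 of the 5 (41.9% of all genes).

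CDKN1B stood at 6.21, 6.46, 6.97, 6.69, 6.84 and 6.92 on the 6 H460 arrays at 0 h and at 6.61, 6.82 and 6.94 at 2 h. At 4 h it read 7.26, 7.41 and 7.26, at 8 h 7.42, 7.30 and 7.36, at 12 h 6.74, 6.81 and 7.02, and at 24 h 7.16, 7.44 and 7.09. The arrays at 4, 8 and 24 h all exceeded the highest array at 0 h, whereas those at 2 and 12 h lay within or just above its range. The changes were 0.63 ± 0.14 at 4 h (1.55-fold, adjusted p = 0.0116), 0.68 ± 0.14 at 8 h (1.60-fold, adjusted p = 0.00221) and 0.55 ± 0.14 at 24 h (1.46-fold, adjusted p = 0.00420). The value 2 h after irradiation was 0.11 (adjusted p = 0.535) and that after 12 h 0.18 (adjusted p = 0.323, 95% interval -0.10 to 0.46). A quadratic curve cannot follow 2 rises with a dip between them, and its test gave adjusted p = 0.0585, against 0.000273 with a separate mean for each time point. With separate means 69.3% of all genes passed, against 41.9% with the curve, so the gain was not particular to CDKN1B. The curve passed when any 1 of 4 arrays was left out, with adjusted p between 0.0249 and 0.0494.

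The 4 h rise did not pass when the 0 h group was cut to its replicates 4 to 6 (0.50, adjusted p = 0.0611) or without 4 h replicate 3 (0.66, adjusted p = 0.0561), and the 24 h rise did not pass without 24 h replicate 2 (0.44, adjusted p = 0.0555). CDKN1A, the gene of the related inhibitor p21, rose by 1.62 in H460 at 4 h and by 0.42 in H1299 at 24 h.

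CDKN2D moved the other way. On the 6 H460 arrays at 0 h it read 6.94, 6.68, 6.74, 6.55, 6.78 and 6.61, and at 2 h 6.62, 6.71 and 6.73. It then read 5.95, 6.45 and 6.22 at 4 h, 6.33, 5.86 and 6.73 at 8 h, 5.58, 6.09 and 5.72 at 12 h, and 6.40, 5.85 and 5.99 at 24 h. The arrays at 4, 12 and 24 h were all below the lowest at 0 h, and those at 8 h spread across it. CDKN2D fell by 0.92 at 12 h (SE 0.16, 1.89-fold, adjusted p = 0.000181) and by 0.64 at 24 h (SE 0.16, 1.56-fold, adjusted p = 0.00397), and its course passed the test (adjusted p = 0.000645). The values at 4 h (-0.51, adjusted p = 0.0812) and 8 h (-0.41, adjusted p = 0.0737) did not pass, but each passed once its array nearest to 0 h was left out, 4 h replicate 2 (-0.63, adjusted p = 0.0481) or 8 h replicate 3 (-0.62, adjusted p = 0.0258). Leaving out single arrays also shrank the 4 h value to as little as -0.38, with adjusted p of up to 0.332. Without 8 h replicate 2, the lowest of the 8 h arrays, the 8 h value was -0.18 (adjusted p = 0.478). Without 24 h replicate 2 the 24 h value was -0.52 (adjusted p = 0.0513).

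CDKN1C in H460 read 7.10, 6.72 and 6.79 at 12 h, against a lowest of 7.01 and a highest of 7.47 at 0 h, so the groups overlapped by 1 array. It fell by 0.41 at that time (SE 0.11, 1.33-fold, adjusted p = 0.00562), and its course passed the test (adjusted p = 0.0264). At 4 h it read 6.97, 6.94 and 6.87, all below the 0 h arrays, and the value of -0.35 did not pass (adjusted p = 0.0778). At 24 h it was -0.26 (adjusted p = 0.0757). These calls turned on single arrays. Without 12 h replicate 2 the 12 h value was -0.34 (adjusted p = 0.0556), and without 0 h replicate 4 the 4 h and 24 h values were -0.40 (adjusted p = 0.0423) and -0.31 (adjusted p = 0.0331). Without 0 h replicate 6 they were -0.38 (adjusted p = 0.0459) and -0.29 (adjusted p = 0.0445). The course did not pass without 12 h replicate 2 (adjusted p = 0.0732), 12 h replicate 3 (0.0647), 0 h replicate 1 (0.0524) or 0 h replicate 5 (0.0536).

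For the chromosome 9 pair, H460 means after irradiation lay below the 0 h mean without passing the test. CDKN2A was 5.54 ± 0.24 (SD, n = 6) at 0 h and lowest at 4 h, with arrays at 4.91, 5.27 and 5.15, a value of -0.43 (adjusted p = 0.168, 95% interval -0.77 to -0.09). CDKN2B was 6.14 ± 0.24 (SD, n = 6) at 0 h and lowest at 12 h, with arrays at 5.98, 5.52 and 5.88, a value of -0.35 (adjusted p = 0.0703, 95% interval -0.65 to -0.04). That CDKN2B value passed when 0 h replicate 3 was left out (-0.40, adjusted p = 0.0444), whereas leaving out 12 h replicate 2 gave -0.21 (adjusted p = 0.371). The CDKN2B course gave adjusted p = 0.0601 and passed when any 1 of 6 arrays was left out, with adjusted p between 0.0385 and 0.0493. The CDKN2A course did not pass (adjusted p = 0.322).

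The width of the arrays' value distributions moved with time. In H460 the mean interquartile range over genes was 3.34 before the dose and 2.84, 3.35, 3.64, 3.67 and 3.64 at the successive later times. With this width as a covariate, the CDKN2D course kept its call. CDKN1B at 4 h was 0.63 (adjusted p = 0.00693), but mean width was nearly the same at 0 and 4 h. The covariate could thus hardly move a 4 h value in H460, and this is no check of the 4 h rise. In the same model CDKN1B was 0.53 at 8 h (adjusted p = 0.258) and 0.40 at 24 h (adjusted p = 0.224). CDKN2D was -0.80 at 12 h (adjusted p = 0.0539) and -0.53 at 24 h (adjusted p = 0.158), and CDKN1C was -0.25 at 12 h (adjusted p = 0.420), -0.35 at 4 h (adjusted p = 0.0413) and -0.11 at 24 h (adjusted p = 0.757). In that model 0%, 0.717%, 3.41% and 8.41% of all genes passed at 2, 8, 12 and 24 h. The H460 arrays at 2 h were all narrower than those at 0 h (at most 2.97 against at least 3.14). Width and the 2 h time point thus cannot be told apart there. The part of array width in these changes was not tested beyond this.

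**Figure D3:**
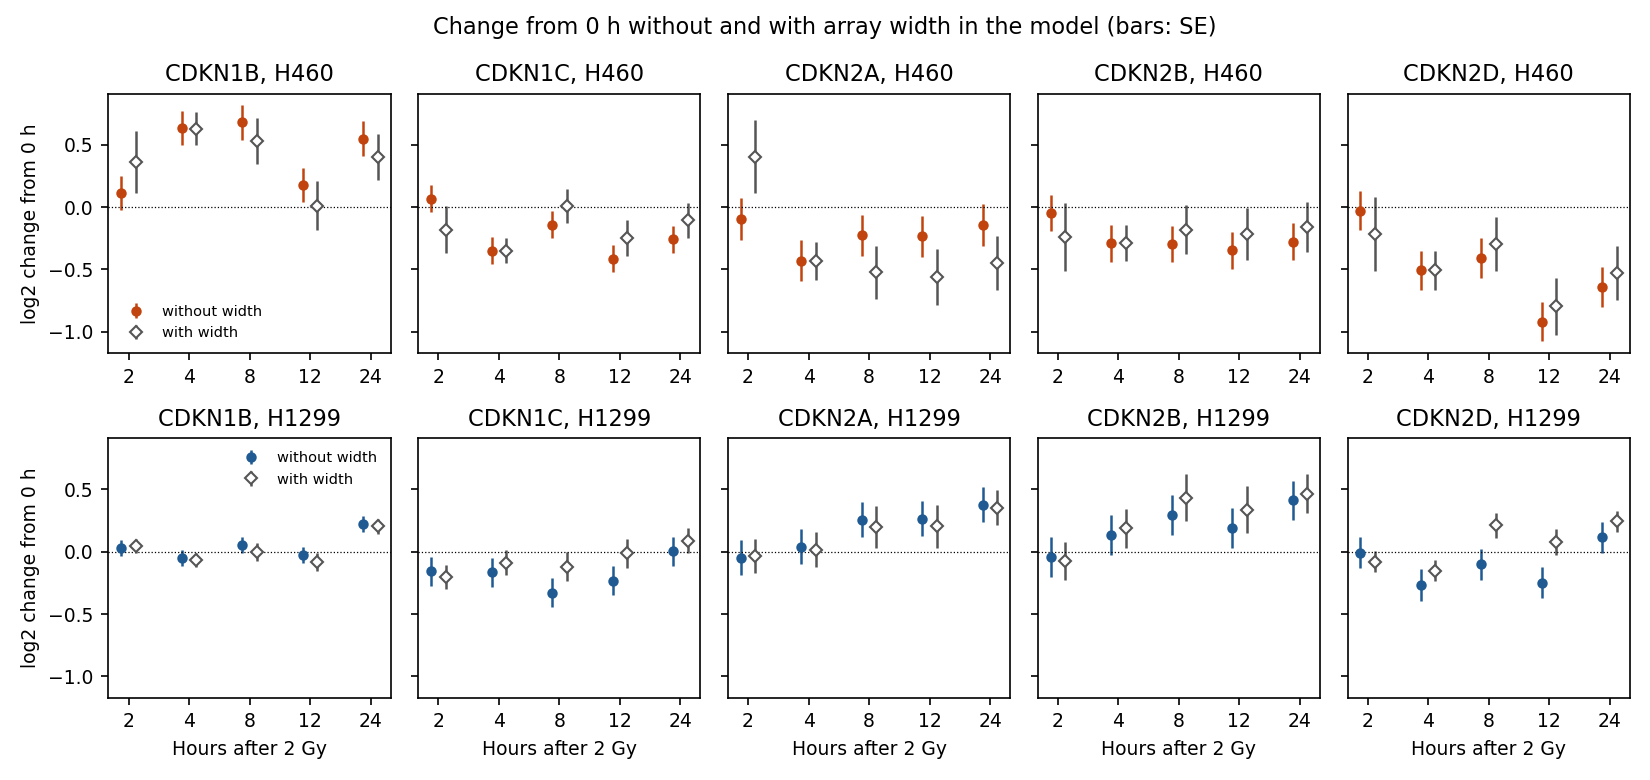
Change from 0 h on the log2 scale (vertical axis) at each hour after 2 Gy for each inhibitor in H460 (top) and H1299 (bottom), without array width in the model (filled) and with it (open), with bars for the standard error (3 arrays against 6). The CDKN1B value at 4 h in H460 is 0.63 in both models, at a time when mean width was nearly that at 0 h. The CDKN2D value at 12 h goes from -0.92 to -0.80 with a larger error.

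In H1299, CDKN1B rose at 24 h and CDKN1C fell at 8 h, and no inhibitor passed at 2, 4 or 12 h. Of the 5, the test called 0 at 2 h (13.8% of all genes), 0 at 4 h (15.9%), 1 at 8 h (24.6%), 0 at 12 h (29.7%) and 1 at 24 h (11.7%). The quadratic course passed for 3 of the 5, CDKN1B, CDKN1C and CDKN2A (36.5% of all genes).

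CDKN1B in H1299 read 8.15, 8.12, 8.02, 8.09, 8.17 and 8.17 at 0 h, and its arrays at 2 to 12 h lay between 8.01 and 8.28. At 24 h it read 8.37, 8.38 and 8.28, all above the 0 h arrays. The rise was 0.22 ± 0.064 (1.17-fold, adjusted p = 0.0206), and the course gave adjusted p = 0.0191. Without 24 h replicate 1 or 2 the 24 h value was 0.21 in both cases (adjusted p = 0.0971 and 0.0908) and the course did not pass (adjusted p = 0.0953 and 0.0973). After quantile normalization the 24 h value was 0.17 (adjusted p = 0.0624).

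CDKN1C in H1299 read 6.80, 6.87 and 6.55 at 8 h, against 6.98, 7.18, 6.88, 7.21, 7.05 and 7.12 at 0 h. The 8 h arrays were all below the lowest 0 h array, the nearest by less than 0.01. It fell by 0.33 (SE 0.12, 1.26-fold, adjusted p = 0.0393), and the value was -0.12 with array width in the model (adjusted p = 0.594). The mean interquartile range of H1299 arrays was 3.58 before the dose and 3.81 after 8 h. The 8 h value did not pass without 8 h replicate 3 (-0.23, adjusted p = 0.254), 8 h replicate 1 (-0.36, adjusted p = 0.0656) or 0 h replicate 2, 4 or 6 (-0.31, -0.30 and -0.32, adjusted p = 0.0579, 0.0746 and 0.0576). The course of CDKN1C (adjusted p = 0.0348) did not pass when any 1 of 7 arrays was left out, with adjusted p between 0.0517 and 0.103.

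CDKN2A in H1299 read 7.31, 7.38, 7.27, 7.31, 7.51 and 7.75 at 0 h and 7.62, 8.30 and 7.48 at 24 h, so the groups overlapped. The 24 h value was 0.38 ± 0.14 (adjusted p = 0.0855) and the course passed (adjusted p = 0.0221), but not without 24 h replicate 2, the array at 8.30 (adjusted p = 0.0554). Without it the 24 h value was 0.13 (adjusted p = 0.662). The value passed when 24 h replicate 3 (0.54, adjusted p = 0.0291) or 0 h replicate 6 (0.44, adjusted p = 0.0363) was left out, and with array width as a covariate the course did not pass (adjusted p = 0.122). CDKN2B in H1299 read 7.25, 7.44 and 7.54 at 24 h, above all 0 h arrays (6.86 to 7.22), with a value of 0.41 ± 0.16 (adjusted p = 0.102) and a course at adjusted p = 0.0537. The CDKN2B course passed when any 1 of 5 arrays was left out, with adjusted p between 0.0263 and 0.0482. CDKN2D in H1299 was lowest at 4 h, with arrays at 6.60, 6.59 and 6.59, a value of -0.27 ± 0.12 (adjusted p = 0.164), and its course gave adjusted p = 0.0738. That course passed without 2 h replicate 1 (adjusted p = 0.0403) or 8 h replicate 1 (adjusted p = 0.0290).

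The difference between the lines was tested as the H460 change minus the H1299 change over all 42 arrays. Both lines' changes share the 0 h arrays of their own line across time points, so neighbouring time points are not independent. CDKN1B differed at 4 and 8 h, with the larger rise in H460, and CDKN2D differed at 12 and 24 h and CDKN2B at 24 h, both lower in H460 relative to H1299. The test called 0 of the 5 at 2 h (28.6% of all genes), 1 at 4 h (8.54%), 1 at 8 h (10.1%), 1 at 12 h (8.68%) and 2 at 24 h (12.4%), and 2 for the difference of courses (16.7%). With array width in the model, 5.61% of all genes passed at 2 h.

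For CDKN1B the changes at 4 h were 0.63 in H460 and -0.05 in H1299, a difference of 0.68 ± 0.15 (adjusted p = 0.00396). At 8 h they were 0.68 and 0.05, a difference of 0.63 ± 0.15 (adjusted p = 0.00581). Both calls held without each array in turn and with array width in the model. Mean width at 8 h was above that at 0 h in both lines (3.64 from 3.34 in H460, 3.81 from 3.58 in H1299). At 4 h it was 3.35 in H460 and 3.66 in H1299, so the covariate could move these differences little. At 24 h the difference was 0.32 (adjusted p = 0.164, 95% interval 0.02 to 0.63). The difference of the quadratic courses did not pass (adjusted p = 0.174), and with a mean for each time point it did (adjusted p = 0.00129). Of all genes 16.7% passed with the quadratic courses and 47.5% with a mean for each time point.

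For CDKN2D the changes at 12 h were -0.92 in H460 and -0.25 in H1299, a difference of -0.67 ± 0.21 (adjusted p = 0.0362), and at 24 h -0.64 and 0.12, a difference of -0.76 ± 0.21 (adjusted p = 0.0123). The courses differed (adjusted p = 0.00927), with no single array ending that call, but they did not pass without the 24 h arrays (adjusted p = 0.0865). The 12 h difference did not pass when any 1 of 7 arrays was left out, where it ran from -0.65 to -0.56 with adjusted p between 0.0558 and 0.134. The 24 h difference did not pass without H460 24 h replicate 2 (-0.64, adjusted p = 0.0688) or with array width (-0.57, adjusted p = 0.0546).

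For CDKN2B the changes at 24 h were -0.28 in H460 and 0.41 in H1299, neither past the test in its own line, and the difference of -0.69 ± 0.23 passed (adjusted p = 0.0390). The difference of its courses also passed (adjusted p = 0.0154), and no single array ended that call. It did not pass without the 24 h arrays (adjusted p = 0.0717). The 24 h difference did not pass when any 1 of 10 arrays was left out, with values from -0.68 to -0.61 and adjusted p between 0.0502 and 0.111. CDKN2A had changes of -0.15 and 0.38 at 24 h, a difference of -0.52 (adjusted p = 0.131, 95% interval -0.99 to -0.06), and its courses gave adjusted p = 0.0734. The difference of CDKN2A courses passed without H460 8 h replicate 3 (adjusted p = 0.0469), H1299 0 h replicate 6 (0.0445) or H1299 24 h replicate 3 (0.0417). Without H1299 24 h replicate 2 the 24 h difference was -0.27 (adjusted p = 0.511), and the courses gave adjusted p = 0.128 without H460 0 h replicate 1, 0.533 after quantile normalization and 0.0342 with array width as a covariate. CDKN1C differed at no time point, with differences between -0.26 and 0.22 and adjusted p of at least 0.292.

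**Figure D4:**
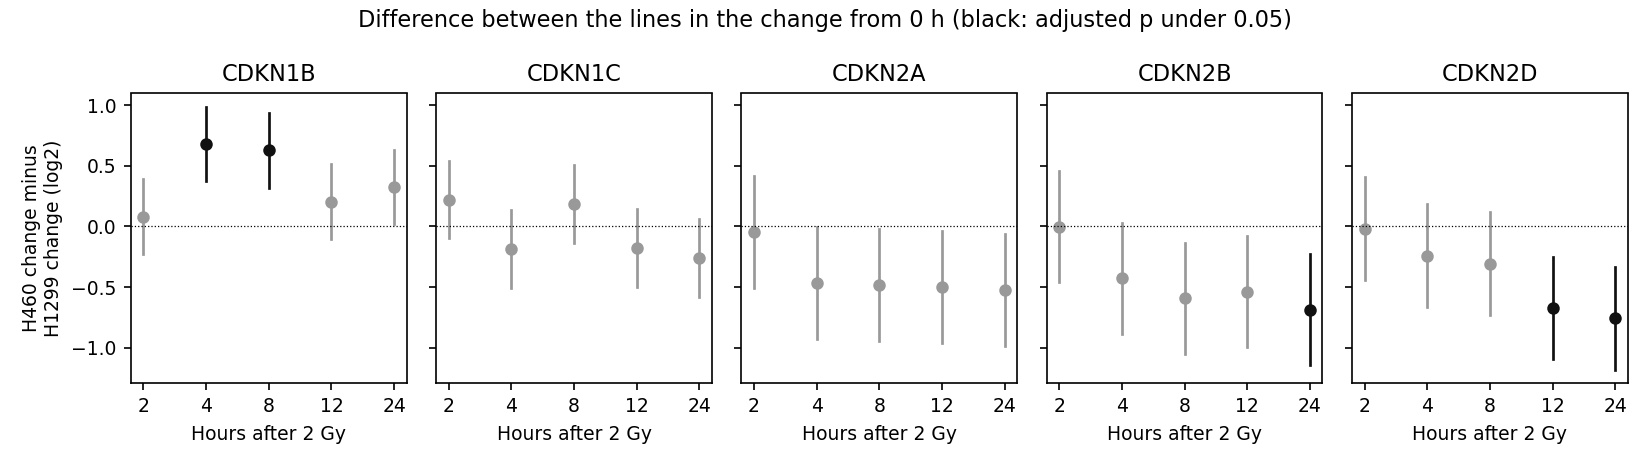
H460 change from 0 h minus H1299 change on the log2 scale (vertical axis) at each hour after 2 Gy, with bars for the 95% interval over 42 arrays. Black points have adjusted p under 0.05, which are CDKN1B at 4 and 8 h (0.68 and 0.63), CDKN2D at 12 and 24 h (-0.67 and -0.76) and CDKN2B at 24 h (-0.69).

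Over the 12 groups, ordered by mean level, CDKN1B in H1299 at 24 h (8.35 ± 0.053, SD, n = 3) stood first and did not overlap the next group. The other H1299 groups lay between 8.07 and 8.17 and overlapped their neighbours. A gap of 0.71 separated them from H460 at 8 h (7.36 ± 0.062, SD, n = 3), and H460 at 8, 4 and 24 h formed a run above H460 at 12, 2 and 0 h. For CDKN2A the gap between the lines was 1.84 and for CDKN2B 0.82. Of the 11 neighbouring pairs, counting the pair across the lines, 9 of CDKN2A and 10 of CDKN2B overlapped. All 11 neighbouring pairs of CDKN1C and of CDKN2D overlapped.

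The courses of the inhibitors were compared with all other genes over the 12 group means, each line centred on its own mean, as a description without a test, since the groups share their line and array width. CDKN2A and CDKN2B had r = 0.87 with each other and CDKN1C and CDKN2D r = 0.85, whereas CDKN1B had r between -0.29 and -0.26 with the other 4. The genes most like CDKN1B were AKIP1 (r = 0.94), SARNP (0.92) and STEAP1B (0.91). Those most like CDKN2D were LINC00526 (0.98), HES6 (0.96) and DUSP2 (0.95), and those most like CDKN1C were F2RL3, FOXI2 and EGR3 (0.97 each). CDKN2A was most like ISYNA1 (0.92), KLF4 (0.91) and CCN3 (0.90), and CDKN2B most like FREM2 (0.95), G0S2 (0.92) and SPRED3 (0.92).

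The kinases and cyclins that the inhibitors bind also differed between the lines at 0 h, where 55.1% of all genes differed and 29.1% were lower in H460. Of the 5 INK4 targets, all 5 were lower in H460, led by the D-type cyclins CCND1 (-0.95 ± 0.075, adjusted p = 1.01e-09) and CCND2 (-0.79 ± 0.12, adjusted p = 1.67e-05), with a median of -0.35 against 0.07 over all genes. CDK6 was lower by 0.35, CCND3 by 0.28 and CDK4 by 0.19, and these 3 did not pass once array width was a covariate (-0.16, -0.15 and -0.11, adjusted p = 0.0849, 0.218 and 0.243). Of the 6 CIP/KIP targets, 5 were lower in H460 and 0 higher, with a median of -0.42, among them CCNA1 (-2.17 ± 0.13, adjusted p = 1.56e-11) and CDK2 (-0.59, adjusted p = 0.000449). Of the 3 pocket proteins, RBL1 was higher in H460 (0.56) and RBL2 lower (-0.47), and RB1 differed by 0.12 without passing. CDK4 and CCND3 also did not pass after quantile normalization (adjusted p = 0.0696 and 0.0927). With array width as a covariate CDK2 was at -0.28 and RBL2 at -0.28, both past the test.

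Over the H460 course, which passed for 41.9% of all genes, 3 of the 6 CIP/KIP targets fell and 1 rose. The E-type cyclin CCNE2 fell by 1.79 at 8 h (SE 0.15) and CCNE1 by 0.72, CCNA2 fell by 0.81 at 24 h, and CDK1 rose by 0.82 at 8 h. Of the INK4 targets 1 of 5 passed, CDK4, which fell by 0.29 at 12 h. Of the pocket proteins RBL2 rose by 0.81 and RBL1 fell by 0.62 at 24 h. In H1299, where 36.5% of all genes passed, 2 INK4 targets rose and 2 fell, with CDK6 up by 0.80 ± 0.080 at 12 h (adjusted p = 8.56e-08), and CCNE1 fell by 0.74 at 12 h while CDK1 and CCNA2 rose. All 3 pocket proteins rose in H1299, RB1 by 0.81, RBL1 by 0.44 and RBL2 by 0.42. With width as a covariate the targets that had passed kept their direction. In H460 CDK1 at 8 h was then 0.38 and RBL2 at 24 h 0.49, both with courses past the test, and CDK1 (0.13, adjusted p = 0.359) and RBL2 (0.25, adjusted p = 0.0873) in H1299 did not pass. The courses of CDK6 (adjusted p = 0.00251), CCNE2 (0.00491), CCNA2 (0.00110) and RBL2 (0.0146) were among those that differed between the lines.

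Of the 8 genes of p27 turnover, 2 were higher and 3 lower in H460 at 0 h, a share near the 55.1% of all genes that differed, with COPS5, a signalosome subunit that binds p27, at -1.80 ± 0.10 (adjusted p = 5.21e-12). SKP2, the F-box protein that recognises p27, was higher by 0.36 (adjusted p = 0.0154). Over the H460 course, RNF123, a ubiquitin ligase for p27, rose by 0.80 at 24 h and SKP1 by 0.50 at 8 h, and the SKP2 cofactor CKS1B fell by 0.39 at 24 h. In H1299, 2 of the 8 rose and 3 fell, with RBX1 down by 0.49 (41.9% of all genes passed for the H460 course and 36.5% for the H1299 course). Of the 3 FOXO factors, which can activate CDKN1B, FOXO4 rose by 0.72 at 24 h and FOXO1 fell by 0.34 in H460, and FOXO1 fell by 0.37 in H1299. Of the 8 Polycomb genes that can repress the INK4 locus, 5 were measured. In H460 EZH2 fell by 0.63 and EED by 0.51 at 24 h, and in H1299 SUZ12 rose by 0.46 and EED fell by 0.28. Among the neighbours of CDKN2A and CDKN2B, 3 of 4 rose in H1299, MTAP by 0.45 (adjusted p = 8.67e-06 for the course), IFNE by 0.42 and KLHL9 by 0.26, and DMRTA1 fell by 0.34. The IFNE change started from a low mean of 2.55. Over the H460 course DMRTA1 passed, at -0.55 at 8 h, and KLHL9, at -0.58 at 2 h and 0.48 at 12 h. The H1299 courses of DMRTA1 and KLHL9 did not pass after quantile normalization (adjusted p = 0.0537 and 0.137). Of 6 imprinted genes beside CDKN1C, KCNQ1 and PHLDA2 were measured, and in H460 they fell by 0.47 and 0.36. With array width in the model the courses of SKP1, FOXO1, KLHL9, KCNQ1 and PHLDA2 in H460 and of SKP2, RNF123, FOXO1, DMRTA1 and KLHL9 in H1299 did not pass, with adjusted p between 0.132 and 0.893 and the direction kept.

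The cell type labels were checked against markers at 0 h, where 55.1% of all genes differed. Of 6 epithelial markers 4 were higher in H460 and 0 lower, with the keratin KRT19 at 11.4 in H460 and 5.23 in H1299, while KRT18 stood at 12.2 and 12.1. EPCAM (3.97 in H460 and 3.67 in H1299) and CDH1 (3.78 and 3.71) were low in both lines. Of 4 mesenchymal markers 3 were lower in H460 (CDH2 at 5.18 against 8.97) and FN1 was higher. Of 6 fibroblast markers 5 were higher in H460, the largest difference being 1.15 for PDGFRB, and of 4 leukocyte markers measured 1 was higher and 1 lower, with PTPRC at 2.68 and 2.66. EPCAM, COL1A1 and COL1A2 did not pass with array width as a covariate (0.20, 0.18 and 0.07). The 4 lung lineage markers did not pass the test at 0 h, NKX2-1 standing at 4.13 and 3.93. In H460 at 12 h, all 4 lung lineage markers were lower than at 0 h, with changes from -0.50 to -0.34 and a median of -0.44, where 33.5% of all genes passed, and 2 of them were higher at 2 h. Their H460 means at 0 h, 4.13 to 5.39, lay below the array medians. Mean array width in H460 was 3.67 at 12 h and 2.84 at 2 h, against 3.34 at 0 h. With width in the model 3.41% of all genes passed at 12 h and 0% at 2 h. The changes of these 4 markers in that model are not given here. No detection calls accompanied the values, and a low level cannot be called absent, and the part of these markers in the inhibitors' differences was not tested. Array medians over genes lay between 5.97 and 6.18, and no 2 arrays were identical.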

How the data were processed

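Total RNA (100 ng per array) of H460 and H1299 was hybridised to 42 one-colour arrays, and groups follow the labels. The deposited values are log2 intensities that the authors normalized before deposit, by a method not given in the sources used here. No depth applies to arrays, and their number limits the precision.

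The deposited table held 32321 entries, of which 19158 had 1 gene symbol in the platform annotation, 1388 several and 11775 none here. Where a gene had several, that with the highest mean level stayed (754 were dropped), leaving 18404 genes. Tests were limma 3.58.1 (R 4.3.3), lmFit and eBayes with trend, two-sided, at an adjusted p of 0.05. They were H460 minus H1299 over the 12 arrays at 0 h, a quadratic curve on hours (as the series' design text names) and contrasts with 0 h over the 21 arrays of each line, and the line by time interaction on all 42. The size given for a course is its largest change at any time point. The fits were run on simulated data with added changes of 1 and of 0.5 in 100 genes each. Changes of 1 were recovered for 89 to 100 genes. Changes of 0.5 were recovered for 70 genes at 0 h, 57 in H460 at 12 h and 54 in H1299 at 24 h. They were recovered for 80 and 72 in the H460 and H1299 courses, 46 in the difference of courses and 19 in the 12 h difference. False calls were 3.57% to 8.33%. A change near 0.5 can thus fail to pass. The simulated noise was independent between arrays, with 1 SD per gene pooled over both lines and no differences in array width. Fewer genes changed than were called in the data, and course changes were a step kept from 8 h on. The counts recovered and the false calls thus need not hold for the data. Python 3.11.15 read the tables.

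The members, gene lists, markers and tests were chosen with earlier results of these data known. By the naming rule, all members are named, with CDKN1A for shared values, up to 3 genes per list and comparison with the smallest p, those a result turns on, and the 3 genes most like each member. The list genes named beyond 3 were chosen after their values were seen. Alternatives were quantile normalization, centred array medians, array width (interquartile range) as a covariate, 4 narrow arrays left out, dim genes left out, the mean of a gene's entries, eBayes without trend or robust, a replicate block, 0 h replicates 1 to 3 or 4 to 6, 1 mean per time point, 24 h left out, and each array left out.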

Additional observations from a re-analysis of the deposited data

Results flagged for a closer look

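In H1299 at 0 h, CDKN2D on replicate 2 read 7.26 against 6.65 to 6.87 on the other 5 arrays. Its gap to the nearest array was 0.647 of the group's range, above Dixon's 95% critical value for 6 arrays. Of 10 groups of 6 arrays tested this way, 1 exceeded it, and chance alone does so in about 1 of 20. This array also had the narrowest value distribution of the H1299 arrays (interquartile range 3.24), and without it the CDKN2D calls at each time point and for the courses stayed as they were.

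Changes of 3 inhibitors differed between the lines by the interaction test. CDKN1B changed more in H460 by 0.68 at 4 h and by 0.63 at 8 h. CDKN2D changed by -0.67 at 12 h and by -0.76 at 24 h in H460 relative to H1299, and its courses differed, with -0.76 as the largest difference. CDKN2B differed by -0.69 at 24 h and its courses differed, with -0.69 as the largest difference.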

How the results depend on the processing

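Of 3645 values of the inhibitors under the alternatives, 82 had the other sign, all of them of results not called in either setting (adjusted p at least 0.181). With array width CDKN2A at 2 h in H460 went from -0.09 to 0.40, and CDKN2D in H1299 from -0.10 to 0.21 at 8 h and from -0.25 to 0.08 at 12 h. The 0 h calls of CDKN1B, CDKN2A and CDKN2B held in all, with 3 to 4 inhibitors called without 1 array. Elsewhere counts of called inhibitors moved, and the causes were not tested. The share of all genes called in the same setting stands in parentheses. With array width as a covariate, 2 were called in H460 at 4 h (5.31%), 0 at 8, 12 and 24 h (0.717%, 3.41% and 8.41%) and 1 for its course (15.8%), 0 in H1299 at 8 h (15.6%), 2 at 24 h (14.6%) and 1 for its course (22.9%), and 0 for the 24 h difference (12.4%). After quantile normalization, 1 was called in H460 at 2 h (27.5%), 0 in H1299 at 24 h (13.4%) and 0 for the 12 h difference (8.17%), and with centred medians 0 in H1299 at 24 h (10.1%). With 0 h replicates 1 to 3 only, 2 were called in H460 at 4 h (2.4%), 0 in H1299 at 8 h (21.5%), 0 for the 12 h and 24 h differences (6.47% and 9.3%) and 1 for the difference of courses (16.7%). With 0 h replicates 4 to 6 only, 0 were called in H460 at 4 h (0.75%), 1 at 12 h (19.3%) and 1 for its course (38.5%), 0 in H1299 at 24 h (8.62%), 0 for the 12 h and 1 for the 24 h difference (5.02% and 9.03%). In H1299 at 8 h, 0 were called without 4 narrow arrays (23.3%) or with eBayes without trend (23.4%). With 1 mean per time point 1 was called for the H1299 course (37.5%). Without the 24 h arrays, 0 were called for the H1299 course (28.9%) and 1 for the difference of courses (11.6%). That 1 was CDKN1B (adjusted p = 0.00670), while CDKN2B and CDKN2D no longer passed (adjusted p = 0.0717 and 0.0865).

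Leaving out each array in turn, the counts ran in H460 from 0 to 0 at 2 h, 0 to 2 at 4 h, 1 to 2 at 8 h, 1 to 3 at 12 h, 0 to 3 at 24 h and 1 to 4 for the course. In H1299 they ran from 0 to 0 at 2, 4 and 12 h, 0 to 1 at 8 h, 0 to 2 at 24 h and 1 to 5 for the course. For the differences they were 0 at 2 h, 1 at 4 and 8 h, 0 to 1 at 12 h, 1 to 2 at 24 h and 2 to 3 for the courses. Shares of all genes called without each array are not given, here or for the 0 h counts above. These counts therefore cannot be set against such shares.

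Samples were treated as unpaired. Deviations of same-numbered arrays had median correlations of -0.021 in H460 and -0.057 in H1299, with highest values of 0.172 and 0.197. Of 45 such pairs per line, 6 in H460 and 12 in H1299 exceeded 0.1, and pairing of some arrays was not tested further. With a replicate block, 2 inhibitors were called in H460 at 4 h (1.95%), 0 in H1299 at 8 h (20.5%) and 2 at 24 h (10.2%), 0 for the 12 h and 24 h differences (6% and 8.64%) and 1 for the difference of courses (14.4%).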
